A study of Mus musculus with 7 samples.

Results

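Collagen chains are the gene products that wind together, 3 to a molecule, into the collagens of connective tissue, and the genes described here are all those with a mouse symbol of the form Col, number, a, number. Of the 18036 genes listed in at least 1 library, 41 were collagen chain genes. A further 3 such genes of the RefSeq table, Col26a1, Col6a6 and Col9a1, were listed in no library. RNA came from the scraped colon epithelium of female hCYP1A mice on a C57BL/6 background, 6 weeks old, in which human CYP1A genes take the place of the mouse ones. All groups shared this genotype, the control included. There were 7 libraries, each from RNA pooled over 3 mice: an untreated control with normal pathology, 3 libraries of mice given 1.5% dextran sulfate sodium (DSS, a sulfated polysaccharide that damages the colon lining) in drinking water for 5 days, and 3 of mice given the same DSS course after PhIP. PhIP, a heterocyclic amine that forms in cooked meat, was given as 2 doses of 100 mg/kg, 4 days apart. Tissue was taken 1, 3 or 7 days after DSS, and the labels give colitis on days 1 and 3 and partial colitis on day 7. Each condition had 1 pooled library, so no value below has a replicate, and intervals on ratios of reads cover counting error only.

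In a collagen molecule each chain carries a long glycine-rich repeat, and the chains fold into a triple helix in the endoplasmic reticulum before secretion. Fibrillar collagens such as types I, III and V pack into the fibrils that give connective tissue its strength, and in the gut they are made mainly by fibroblasts and related mesenchymal cells below the epithelium. Type IV collagen forms the sheet of the basement membrane on which the epithelium and the vessel wall rest. Type VI forms beaded filaments near cells, FACIT chains sit on the surface of fibrils, types VIII and X form short-chain networks, and the multiplexins XV and XVIII carry heparan or chondroitin sulfate chains and lie at basement membranes.

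The 41 chains comprised 11 fibrillar, 6 basement membrane, 5 beaded filament and 8 FACIT chains, 1 anchoring fibril chain, 3 short-chain network chains, 4 transmembrane chains, 2 multiplexins and 1 other chain, Col28a1. Of these, 16 reached at least 1 RPKM (reads scaled to gene length and library total) in at least 2 libraries and entered the test. The remaining 25 did not, and 8 chains had at most 10 reads over all libraries together. All 41 are kept in the counts of single-library ratios below.

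Upstream sequences from the RefSeq promoter table (GRCm38.p6) are shown for 2 fibrillar chains that were high after treatment and for the 2 tested chains that were below the control. Of the 16 tested chains, 13 had such a window. Each sequence is the 250 bases before the start site, written 5′ to 3′ on the gene's strand. Both strands were searched for 3 motifs, and capitals mark the matches. The CCAAT box reads CCAAT, or ATTGG on the other strand. The TATA box was searched as TATAAA, which reads TTTATA on the other strand. The GC box was searched as GGGCGG, which reads CCGCCC on the other strand. No matches overlap one another in these windows.
Col1a2 (chr6:4505368-4505617, plus strand): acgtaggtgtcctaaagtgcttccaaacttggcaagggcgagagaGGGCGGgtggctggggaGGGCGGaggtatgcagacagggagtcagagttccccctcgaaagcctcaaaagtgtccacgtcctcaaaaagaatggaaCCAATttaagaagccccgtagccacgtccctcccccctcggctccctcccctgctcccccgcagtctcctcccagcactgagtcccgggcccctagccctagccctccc
Col3a1 (chr1:45311288-45311537, plus strand): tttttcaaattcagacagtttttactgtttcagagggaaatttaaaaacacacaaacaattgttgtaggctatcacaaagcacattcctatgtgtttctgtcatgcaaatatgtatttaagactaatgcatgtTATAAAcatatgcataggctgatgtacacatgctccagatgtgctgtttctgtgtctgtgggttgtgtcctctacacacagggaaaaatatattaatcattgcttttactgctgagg
Col8a1 (chr16:57754738-57754987, minus strand): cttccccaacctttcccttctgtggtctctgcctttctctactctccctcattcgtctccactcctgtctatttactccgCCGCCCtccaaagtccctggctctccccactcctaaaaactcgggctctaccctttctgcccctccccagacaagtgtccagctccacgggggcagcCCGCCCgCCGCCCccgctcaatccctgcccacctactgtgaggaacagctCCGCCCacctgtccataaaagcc
Col16a1 (chr4:130047590-130047839, plus strand): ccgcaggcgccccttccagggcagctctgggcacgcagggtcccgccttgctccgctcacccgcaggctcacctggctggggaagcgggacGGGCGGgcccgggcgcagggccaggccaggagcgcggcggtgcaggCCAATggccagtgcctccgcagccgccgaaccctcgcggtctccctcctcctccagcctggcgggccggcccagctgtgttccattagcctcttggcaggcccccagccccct

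CCAAT stood in 6 of the 13 windows of tested chains and in 34.5% of the 27025 windows of the table. The GC box letters stood in 8 of 13, against 32.9% of all windows. TATAAA stood in 1 of 13, that of Col3a1, where it began 117 bases before the start site, against 12.97% of all windows. The chains that were high after treatment did not share 1 of these 3 motifs, since Col1a2 held CCAAT and 2 GC boxes and Col3a1 held neither. A match describes letters in the window only.

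The genes of the main basement membrane chains, Col4a1 and Col4a2, start next to each other on opposite strands of chromosome 8. Their start sites in the promoter table, at 11312826 and 11312805, lie 21 bases apart, and the gene spans overlap by 85 bases, so that the transcripts overlap head to head. No label or header says whether reads were counted by strand, and reads in that overlap cannot be assigned to 1 of the pair. The stretch between both start sites is shown because the first bases of both transcripts share it, and it holds a GC box match, in capitals.
Col4a1 and Col4a2 (chr8:11312806-11312825, plus strand): gtgcgcGGGCGGcgtctcca

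Against the control, 19 of the 41 chains were higher in all 6 treated libraries and 3 were lower in all 6. Among all genes listed, 19.3% were higher and 29.2% were lower in all 6. The 19 higher chains included 8 of 11 fibrillar chains, 4 of 6 basement membrane chains and 4 of 5 beaded filament chains. Some of the 19 rest on very few reads, such as Col24a1, Col23a1 and Col4a6, with 0, 1 and 2 reads in the control. The 3 lower chains were Col8a1, a short-chain network chain, and the FACIT chains Col16a1 and Col20a1. In bulk samples such as these, fewer cells of a type and less RNA per cell cannot be told apart. The PhIP/DSS day 1 library stood apart on fat cell markers, which summed to 129 RPKM there and to at most 16.8 elsewhere, and without it the counts were again 19 and 3 (20.5% and 30.9% of all genes).

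**Figure D1:**
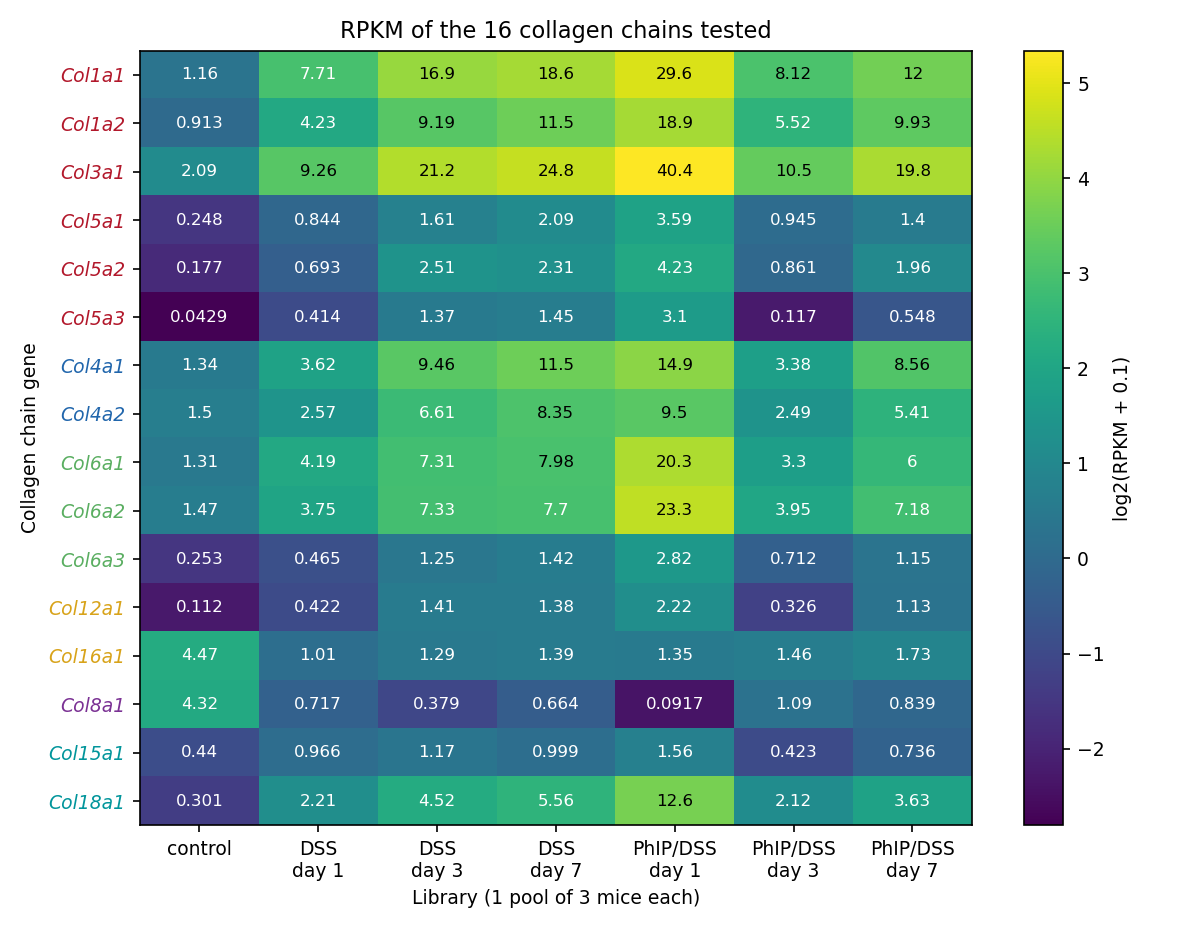
RPKM of the 16 tested collagen chains in the 7 libraries, with the value printed in each cell and colour on a log2(RPKM + 0.1) scale. Chain names are coloured by class: red fibrillar, blue basement membrane, green beaded filament, yellow FACIT, purple short-chain network, teal multiplexin. PhIP/DSS day 1 is the highest library for 14 chains, and the control is the highest for Col16a1 and Col8a1. The share of all tested genes that were highest in each library is not given.

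Col3a1 and Col1a1 were the most abundant collagen transcripts in every treated library, in that order. Col1a1, the first chain of type I collagen (GeneID 12842, chromosome 11, 94936224 to 94953042), stood at 1.16 RPKM in the control, at 7.71, 16.9 and 18.6 on days 1, 3 and 7 after DSS, and at 29.6, 8.12 and 12.01 on the same days after PhIP/DSS. Col1a2, its partner chain (GeneID 12843), stood at 0.913 RPKM in the control, 4.23, 9.19 and 11.5 after DSS and 18.9, 5.52 and 9.93 after PhIP/DSS. Col3a1, the only chain of type III collagen (GeneID 12825), stood at 2.09 RPKM in the control, 9.26, 21.2 and 24.8 after DSS and 40.4, 10.5 and 19.8 after PhIP/DSS. For each of these 3 chains the control was the lowest library and PhIP/DSS day 1 the highest. The DSS libraries were higher on each later day, whereas the PhIP/DSS libraries went from the highest level on day 1 to their lowest on day 3. In reads, Col1a1 in PhIP/DSS day 1 was 25.4-fold the control (95% interval 18.7 to 35.5, 1189 against 42 reads scaled to library totals). In DSS day 1 it was 6.63-fold the control (95% interval 4.79 to 9.37), and these 2 intervals do not overlap.

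Type V chains, which join type I fibrils and limit their width, were less abundant than types I and III. Col5a1 stood at 0.248 RPKM in the control, 0.844, 1.61 and 2.09 after DSS and 3.59, 0.945 and 1.40 after PhIP/DSS. Col5a2 stood at 0.177 RPKM in the control, 0.693, 2.51 and 2.31 after DSS and 4.23, 0.861 and 1.96 after PhIP/DSS. Col5a3 stood at 0.0429 RPKM in the control, 0.414, 1.37 and 1.45 after DSS and 3.10, 0.117 and 0.548 after PhIP/DSS. The control was the lowest library and PhIP/DSS day 1 the highest for all 3 chains. Col5a3 rested on 2 reads in the control, and its ratio to the control in PhIP/DSS day 3, with 6 reads, was 2.73 with a 95% interval of 0.488 to 27.7. At that depth no difference between these 2 libraries was detectable. Col5a3 was also the tested chain with the widest gap between the arms on day 3, at 73 reads after DSS and 6 after PhIP/DSS.

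The other 5 fibrillar chains did not enter the test. Col27a1, a fibrillar chain of cartilage and other tissues, was above the control in all 6 treated libraries, with 0.0684 RPKM in the control, 0.150, 0.373 and 0.349 after DSS and 0.721, 0.140 and 0.218 after PhIP/DSS. It was named after its values were seen, as were the other chains below the filter except Col20a1. Col2a1 and Col11a1, chains of cartilage fibrils, had 1 and 2 reads over all 7 libraries. Col11a2 had between 3 and 11 reads a library, with 9 in the control. Col24a1 had 13 reads in all and 0 in the control.

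Basement membrane chains were led by Col4a1 and Col4a2, which together make the common form of type IV collagen. Col4a1 (GeneID 12826) stood at 1.34 RPKM in the control, 3.62, 9.46 and 11.5 after DSS and 14.9, 3.38 and 8.56 after PhIP/DSS. Col4a2 (GeneID 12827) stood at 1.50 RPKM in the control, 2.57, 6.61 and 8.35 after DSS and 9.50, 2.49 and 5.41 after PhIP/DSS. Both were above the control in all 6 treated libraries, and the lowest treated library of each was PhIP/DSS day 3. Against the control, Col4a2 reads in that library were 1.66-fold (95% interval 1.24 to 2.24), and Col4a1 reads were 2.53-fold (1.91 to 3.39).

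The minor type IV chains were far lower. Col4a5, a chain of the networks found in kidney, skin and smooth muscle basement membranes, stood at 0.0602 RPKM in the control, 0.158, 0.228 and 0.391 after DSS and 0.414, 0.274 and 0.641 after PhIP/DSS. Col4a6, its partner, ranged from 0.0393 RPKM in the control to 0.233 in PhIP/DSS day 7. Both had their highest level in PhIP/DSS day 7 rather than in PhIP/DSS day 1, and both rested on few reads, 119 and 47 over all libraries. Col4a3 and Col4a4 had 20 and 3 reads in all.

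Of the 5 beaded filament chains, 4 were lowest in the control and highest in PhIP/DSS day 1, all but Col6a5. Col6a1 stood at 1.31 RPKM in the control, 4.19, 7.31 and 7.98 after DSS and 20.3, 3.30 and 6.00 after PhIP/DSS. Col6a2 stood at 1.47 RPKM in the control, 3.75, 7.33 and 7.70 after DSS and 23.3, 3.95 and 7.18 after PhIP/DSS. Col6a3, the long chain of the type VI molecule, stood at 0.253 RPKM in the control, 0.465, 1.25 and 1.42 after DSS and 2.82, 0.712 and 1.15 after PhIP/DSS. Col6a4 was below the filter and was above the control in all 6 treated libraries, between 0.308 and 0.850 RPKM against 0.0877. Col6a5 had 28 reads in all.

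Among the FACIT chains, which decorate fibrils, Col12a1 and Col16a1 went in opposite directions from the control. Col12a1, which binds type I fibrils, stood at 0.112 RPKM in the control, 0.422, 1.41 and 1.38 after DSS and 2.22, 0.326 and 1.13 after PhIP/DSS. Col16a1 (GeneID 107581, chromosome 4, 130047817 to 130099277) stood at 4.47 RPKM in the control, 1.01, 1.29 and 1.39 after DSS and 1.35, 1.46 and 1.73 after PhIP/DSS. All 6 treated libraries lay within a narrow band for Col16a1, far below the control. Col16a1 overlaps predicted genes in the annotation, as Col15a1 does. Its reads were lower than the control by a factor of 4.43 in DSS day 1 (95% interval 3.19 to 6.27) and of 2.58 in PhIP/DSS day 7 (1.96 to 3.42), the largest and the smallest such factors. Col20a1, the highest of the chains below the filter, stood at 1.22 RPKM in the control, 0.438, 0.544 and 0.636 after DSS and 0.0280, 0.482 and 0.625 after PhIP/DSS. The value of Col20a1 in PhIP/DSS day 1 was 1 read, so its ratio to the control is loosely set: lower by a factor of 43.4, with a 95% interval of 7.35 to 1759. The other 5 FACIT chains had between 4 and 24 reads in all.

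Col8a1, a chain of the short-chain network of type VIII collagen in vessel walls and other tissues (GeneID 12837, chromosome 16, 57624256 to 57754737), was the chain farthest below the control. It stood at 4.32 RPKM in the control, 0.717, 0.379 and 0.664 after DSS and 0.0917, 1.09 and 0.839 after PhIP/DSS. The control thus exceeded every treated library, and PhIP/DSS day 1 was the lowest library for Col8a1. That library held 4 Col8a1 reads against 169 in the control, lower by a factor of 47.1 (95% interval 18.0 to 175). In PhIP/DSS day 3, the treated library with the most Col8a1, it was lower by a factor of 3.95 (2.85 to 5.58). In the control, Col16a1 and Col8a1 were the most abundant of all 41 chains, ahead of Col3a1. The remaining short-chain network chains, Col8a2 and Col10a1, had 1 and 6 reads in all.

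The multiplexins differed in how far they stood from the control. Col18a1, the precursor of endostatin in basement membranes, stood at 0.301 RPKM in the control, 2.21, 4.52 and 5.56 after DSS and 12.6, 2.12 and 3.63 after PhIP/DSS. Col15a1 stood at 0.440 RPKM in the control, 0.966, 1.17 and 0.999 after DSS and 1.56, 0.423 and 0.736 after PhIP/DSS. Col18a1 exceeded the control everywhere, whereas for Col15a1 in PhIP/DSS day 3 no difference from the control was detectable at this depth, at a ratio of 0.960 (95% interval 0.477 to 1.94). In PhIP/DSS day 7 the Col15a1 ratio was 1.67, and its 95% interval of 0.9148 to 3.155 included 1 as well. In PhIP/DSS day 1 Col18a1 was 42.1-fold the control in reads (24.4 to 79.5).

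The chains that fasten the epithelium itself were low. Col7a1, the anchoring fibril chain that ties the basement membrane to the stroma, stood at 0.170 RPKM in the control, 0.0497, 0.173 and 0.249 after DSS and 0.356, 0.0644 and 0.103 after PhIP/DSS. Col17a1, the transmembrane collagen of hemidesmosomes, stood at 0.385 RPKM in the control, 0.211, 0.231 and 0.379 after DSS and 0.259, 0.394 and 0.417 after PhIP/DSS. Neither chain kept 1 direction from the control, and the largest count of either in any library was 28 reads. The transmembrane chains Col13a1, Col23a1 and Col25a1 had 14, 32 and 6 reads over all libraries, and Col28a1 had 43.

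**Figure D2:**
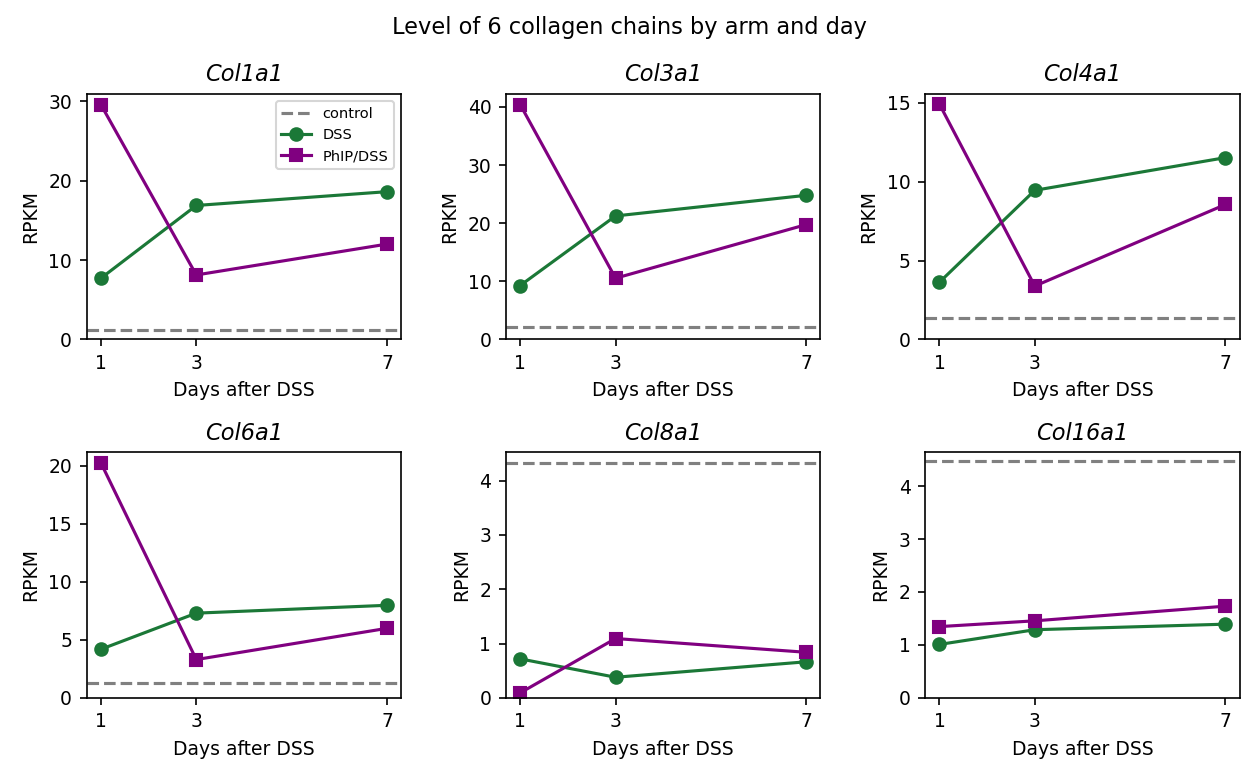
RPKM of 6 collagen chains by days after DSS, in the DSS arm (green circles) and the PhIP/DSS arm (purple squares), with the control level as a dashed line; each point is 1 pooled library. Col1a1, Col3a1, Col4a1 and Col6a1 lie above the control line at every point and cross between the arms from day 1 to day 3, and Col8a1 and Col16a1 lie below it throughout.

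Counted by a ratio of at least 2-fold in RPKM + 0.1 against the control, 13 of the 41 chains were higher in DSS day 1 (6.83% of all genes), 18 in DSS day 3 (8.87%) and 17 in DSS day 7 (9.26%). In the PhIP/DSS arm 20 were higher on day 1 (13% of all genes), 13 on day 3 (6.07%) and 19 on day 7 (9.31%). The share of the chains that were higher, from 31.7% to 48.8%, was above the share of all genes in each of the 6 libraries. Lower by the same rule were 3, 4 and 2 chains in the DSS libraries (8.93%, 9.08% and 8.07% of all genes) and 3, 3 and 2 in the PhIP/DSS libraries (11.4%, 7.19% and 6.44%). The counts of lower chains were near or under the background. With a pseudocount of 1 in place of 0.1, which lowers the ratios of scarce genes, the counts of higher chains were 5 in DSS day 1 and 13, 5 and 9 in the PhIP/DSS libraries, and 2 were lower in DSS day 3. No share of all genes is given at a pseudocount of 1, so these counts cannot be set against a background. The counts of higher chains in DSS days 3 and 7 at that pseudocount are not given either. All 6 comparisons share the control library, so a chance deviation there enters every one of them.

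By the class median, fibrillar chains stood farther above the control than basement membrane chains in each treated library. In DSS the median log2 ratio to the control was 1.44, 2.30 and 2.65 over the 11 fibrillar chains on days 1, 3 and 7, and 0.48, 0.90 and 1.22 over the 6 basement membrane chains. In PhIP/DSS it was 3.41, 0.60 and 2.11 over the fibrillar chains, and 1.24, 0.50 and 1.52 over the basement membrane chains. Medians over all genes lay between -0.04 and 0.00. Each basement membrane median was the midpoint of Col4a6 and either Col4a5 or Col4a2, and Col4a6 and Col4a5 had 2 and 3 reads in the control. The abundant Col4a1 entered none of these medians. Its own log2 ratios were 1.37, 2.73 and 3.02 after DSS and 3.39, 1.28 and 2.59 after PhIP/DSS. The gap between the medians was smallest in PhIP/DSS day 3, where the fibrillar median was the ratio of Col5a3, with 6 reads against 2 in the control. By the count of chains at least 2-fold higher the order was the other way in PhIP/DSS day 7, with 6 of 11 fibrillar and 4 of 6 basement membrane chains.

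Summed RPKM put the fibrillar chains farther above the control than the basement membrane chains in each treated library as well, but ordered the libraries differently. The fibrillar sum was 4.91 RPKM in the control, 23.5, 53.3 and 61.5 after DSS and 100.8, 26.4 and 45.9 after PhIP/DSS. The basement membrane sum was 2.98 RPKM in the control, 6.46, 16.5 and 20.4 after DSS and 25.0, 6.26 and 14.9 after PhIP/DSS. The fibrillar sum was 1.65 times the basement membrane sum in the control, with a 95% interval of 1.33 to 2.04. That ratio was 3.63, 3.23 and 3.01 after DSS and 4.03, 4.22 and 3.08 after PhIP/DSS, so it was highest in PhIP/DSS day 3, where the gap between the class medians was smallest. The lowest bound of the 6 treated intervals was 2.80, above the upper bound of the control. These sums were carried by few chains: types I and III made up between 84.8% and 91.4% of the fibrillar sum, and Col4a1 and Col4a2 between 93.7% and 97.7% of the basement membrane sum. Without those 5 chains the ratio was 5.15 in the control, and it was higher in 5 of the 6 treated libraries and lower, at 4.51, in PhIP/DSS day 7.

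**Figure D3:**
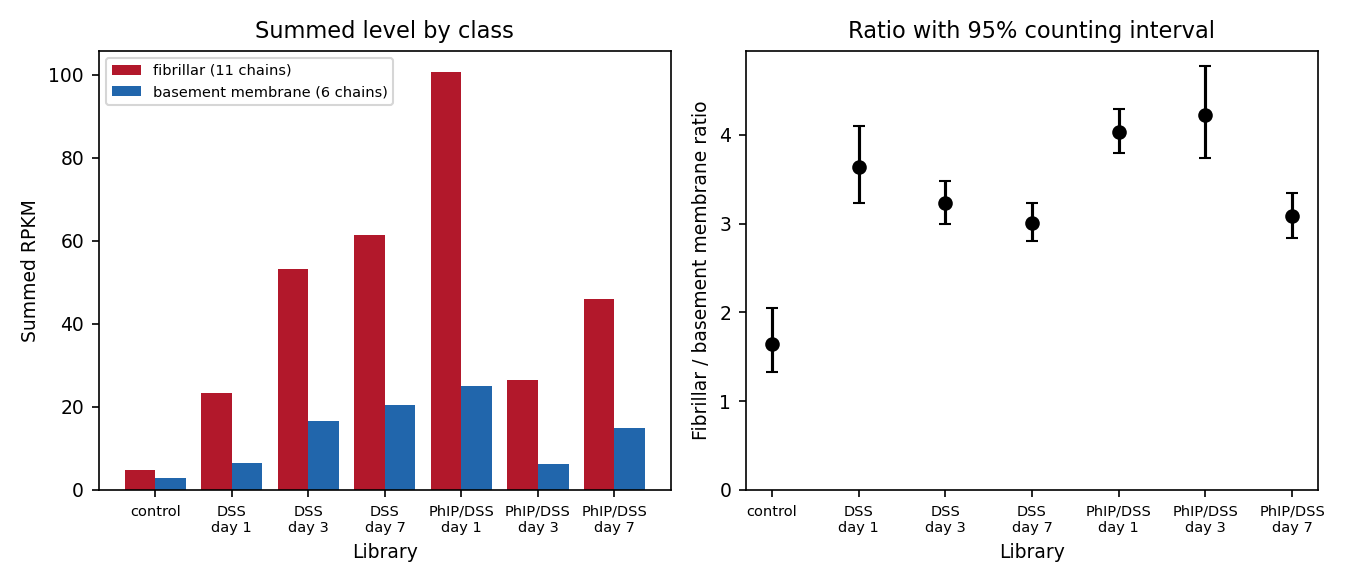
Left, summed RPKM of the 11 fibrillar (red) and 6 basement membrane (blue) chains in each library. Right, the ratio of both sums with its 95% counting interval. The control ratio of 1.65 is the lowest, and the 6 treated ratios lie between 3.01 and 4.22.

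Chains that share a molecule differed in how steady their ratio of RPKM was between libraries. Type I collagen usually holds 2 Col1a1 chains to 1 Col1a2 chain, and the ratio of Col1a2 to Col1a1 was below 1 in all 7 libraries, between 0.544 in DSS day 3 (95% interval 0.481 to 0.616) and 0.827 in PhIP/DSS day 7 (0.724 to 0.944). These intervals do not overlap. In the control the ratio of Col1a2 to Col1a1 was 0.785, and its 95% interval of 0.4885 to 1.255 included 1. The ratio of Col5a2 to Col5a1, both chains of type V, ran from 0.716 in the control (0.279 to 1.72) to 1.56 in DSS day 3 (1.22 to 2.01). The ratio of Col6a2 to Col6a1 lay between 0.894 and 1.20, and that of Col6a3 to Col6a1 between 0.111 and 0.215. The ratio of Col4a2 to Col4a1 was 1.12 in the control (95% interval 0.798 to 1.59) and between 0.632 and 0.738 in the 6 treated libraries. The interval lay wholly below that of the control in PhIP/DSS day 1 (0.570 to 0.711) and day 7 (0.545 to 0.733), and it overlapped that of the control in the other 4 treated libraries. Type IV molecules of this pair hold 2 Col4a1 chains to 1 Col4a2 chain.

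The comparison of each day with the control, taking both arms together, asked whether these differences exceed the spread between libraries. With no replicate libraries, the spread came from how the difference between the arms varied over the days, with 2 residual degrees of freedom. By edgeR's quasi-likelihood test 0 of the 16 chains passed at an adjusted p under 0.05 on day 1, 3 or 7, and 0 of all 12061 genes did (0% called). At an unadjusted p under 0.05, day 1 had 5 chains higher and 2 lower (16.4% and 16.2% of all genes), day 3 had 3 and 1 (10.3% and 8.67%), and day 7 had 4 and 1 (9.22% and 7.99%). Col1a1 had log2 fold changes of 3.98 (SE 1.20) on day 1, 3.45 (SE 1.17) on day 3 and 3.75 (SE 1.18) on day 7, with edgeR adjusted p of 0.106, 0.235 and 0.242. Col4a1 had 2.79 (SE 1.22), 2.29 (SE 1.19) and 2.93 (SE 1.21), with edgeR adjusted p of 0.189, 0.353 and 0.312. Col16a1 had the smallest standard error of the 16 chains, with log2 fold changes of -1.94, -1.68 and -1.50 (SE 0.23 for each) and edgeR adjusted p of 0.0710, 0.132 and 0.116. Col8a1 had -3.44 (SE 1.13), -2.51 (SE 1.09) and -2.49 (SE 1.08). The arms of Col16a1 lay close together on each day, at 1.01 and 1.35 RPKM on day 1, whereas those of Col8a1 stood at 0.717 and 0.0917.

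DESeq2 with the same design called 9 of the 16 chains on day 1, 8 higher (5.86% of all genes) and 1 lower (4.44%). It called 0 chains on day 3 (2.49% of all genes higher and 1.14% lower), 0 on day 7 (2.72% and 1.09%) and 0 between the arms (0.0580% and 0.0497%). With DSS day 1 left out, edgeR called 16, 15 and 15 chains on days 1, 3 and 7. With PhIP/DSS day 1 left out, it called 7, 15 and 15. Leaving out either day 1 library thus raised the number of called chains on every day. The remaining day 1 library is then fitted exactly, and the spread comes only from the difference between the arms on days 3 and 7. These fits therefore leave out the day 1 difference between the arms, and their counts do not measure how firm the chains are against it. It raised the share of all genes called too. Without DSS day 1, 18.9% of all genes were called higher and 16.6% lower on day 1, 9.46% and 8.30% on day 3, and 9.03% and 6.69% on day 7. Without PhIP/DSS day 1 the shares were 6.17% and 6.23%, 9.94% and 8.89%, and 9.47% and 7.20%.

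**Figure D4:**
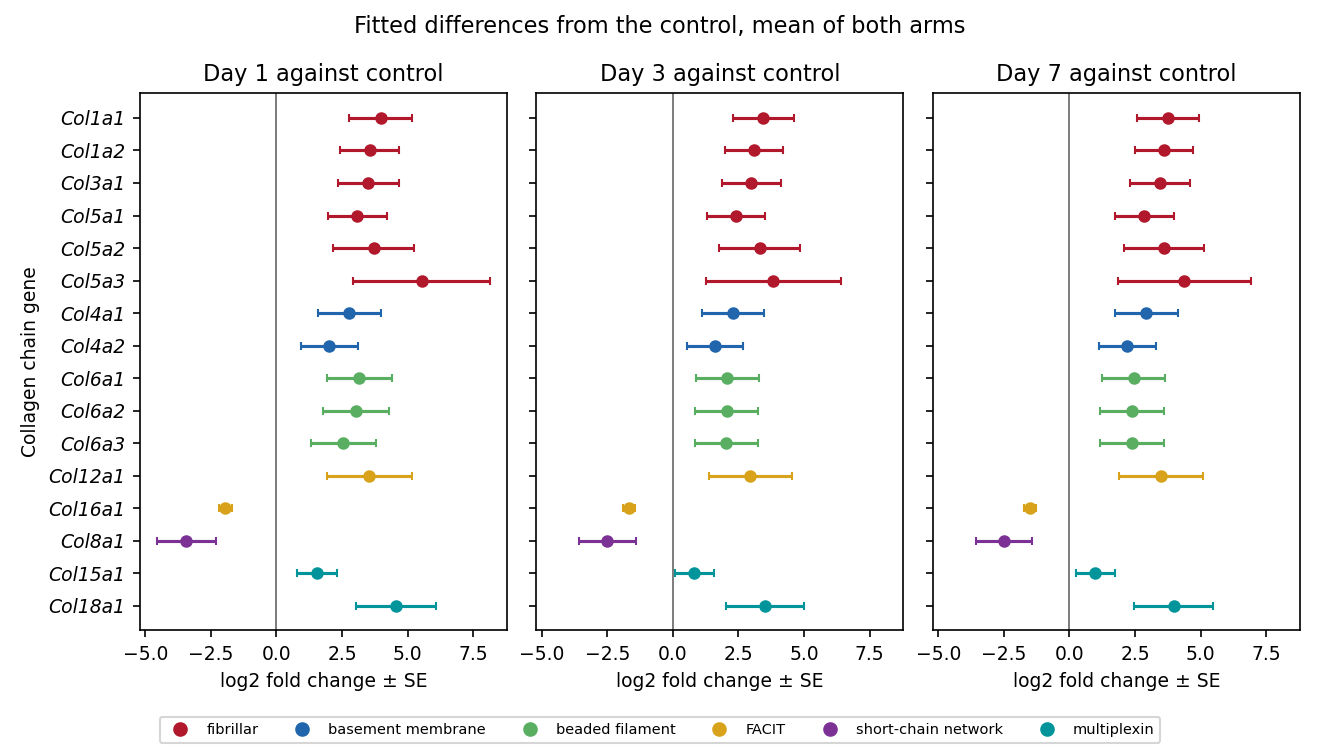
Fitted log2 fold change of the 16 tested chains against the control on days 1, 3 and 7 (mean of both arms), with bars of 1 standard error and colours by class. Col16a1 and Col8a1 lie left of 0 on each day and the other 14 chains right of it, and Col16a1 has the shortest bar.

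The comparison of the arms asked what PhIP before DSS added. Its term in the fit, over the 3 days, called 0 of 16 chains by edgeR (0% of all genes), and 0 chains had an unadjusted p under 0.05 in either direction (2.01% of all genes higher and 1.66% lower). For Col1a1 the term was 0.02 (SE 0.66), and for Col4a1 it was -0.02 (SE 0.73). Those means near 0 covered opposite differences on single days. On day 1, 16 of the 41 chains were at least 2-fold higher after PhIP/DSS than after DSS and 2 were lower, against 9.18% and 3.31% of all genes. On day 3, 2 were higher and 10 lower, against 3.76% and 6.24%. On day 7, 3 were higher and 2 lower, against 4.65% and 4.24%. With a pseudocount of 1, 0 were lower on day 1, the day 3 counts were 0 higher and 3 lower, and both day 7 counts were 0. The count of higher chains on day 1 at that pseudocount is not given, so these counts do not show whether the day 1 difference was smaller. No share of all genes is given at that pseudocount. Col1a1 reads in PhIP/DSS were 3.84-fold those in DSS on day 1 (95% interval 3.39 to 4.36), 0.481-fold on day 3 (0.420 to 0.550) and 0.645-fold on day 7 (0.573 to 0.725). Col4a1 reads were 4.12-fold (3.53 to 4.81), 0.358-fold (0.301 to 0.423) and 0.742-fold (0.657 to 0.837). Of the 16 tested chains, 14 were higher after PhIP/DSS on day 1 and lower on day 3, against 26.9% of all genes tested. Of all 41 chains, 23 were, against 25.3% of all genes listed.

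Day 7 against day 1, both arms together, called 0 of 16 chains by edgeR (0% of all genes, with 12.3% higher and 14% lower at an unadjusted p under 0.05). The result depends on which day 1 library is used. Without DSS day 1, 12 chains were called lower on day 7 and 1 higher (13.1% and 11.7% of all genes). Without PhIP/DSS day 1, 12 were called higher and 0 lower (4.12% and 2.40%).

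Genes that fold, process, bind or cut collagen were described by lists. No list had a called member, as 0 of all 12061 genes tested were called. Over all genes tested, 5893 had a higher fitted value on day 7. Of the folding and modification list, 13 of 18 were tested, and 12 had a higher fitted value on day 7 (median log2 fold change 0.41, against -0.01 over all genes). Serpinh1, the chaperone of procollagen, stood at 0.652 RPKM in the control, 5.06, 6.74 and 6.56 after DSS and 21.7, 3.22 and 5.65 after PhIP/DSS. P4hb, a subunit of prolyl hydroxylase that serves other proteins too, stood at 297 RPKM in the control, 486, 510 and 374 after DSS and 509, 432 and 366 after PhIP/DSS. Serpinh1 had the order of libraries seen in the fibrillar chains at its ends, and P4hb stayed within a narrower range. The highest fitted values of the list on day 7 were those of Serpinh1, 3.26 (SE 1.21), and Fkbp10, a chaperone with 2 reads in the control, 2.90 (SE 2.01), and the lowest were those of Crtap, -0.20 (SE 0.20), and Mia3, 0.03 (SE 0.13).

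Of the processing and cross-linking list, 5 of 13 were tested and all 5 had higher fitted values on day 7, with a median of 2.27. Pcolce2, an enhancer of procollagen cleavage, and Loxl1, a cross-linking oxidase, had 0 reads in the control, which allows up to 3, and had reads in all 6 treated libraries. Bmp1, the C-proteinase, and Pcolce had 0.32 (SE 0.74) and 0.31 (SE 0.97). Lox, the main cross-linking oxidase, did not enter the test, at 0.0724 RPKM in the control, 0.127, 0.853 and 0.840 after DSS and 1.04, 0.362 and 0.925 after PhIP/DSS. The Lox value of the control was 2 reads.

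Of the fibril-associated matrix list, 8 of 12 were tested, 7 with higher fitted values on day 7 and a median of 3.20. Sparc, a collagen-binding glycoprotein, stood at 2.27 RPKM in the control, 12.9, 22.8 and 21.0 after DSS and 46.4, 12.03 and 21.5 after PhIP/DSS. Fn1, fibronectin, had a fitted value of 4.49 (SE 1.66) and Lum, the proteoglycan lumican with 1 read in the control, of 3.86 (SE 1.54). The lowest were Thbs1, -0.31 (SE 1.49), and Postn, 2.24 (SE 0.89). Sparc thus followed the type I and III chains in having its lowest value in the control and its highest in PhIP/DSS day 1.

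Of the non-collagen basement membrane list, 11 of 15 were tested, 9 with higher fitted values on day 7 and a median of 0.52. Nid1, which links laminin to type IV collagen, had 3.31 (SE 0.99), and Lamb1 had 1.98 (SE 0.98). Lamb2, a laminin chain, stood at 4.80 RPKM in the control, 1.22, 1.09 and 1.29 after DSS and 1.15, 1.44 and 1.50 after PhIP/DSS, with a fitted value of -1.76 (SE 0.25, edgeR adjusted p = 0.108). Nid2 had -0.52 (SE 0.26). Lamb2 and Nid2 were below the control in all 6 treated libraries, as were 29.2% of all genes listed.

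Collagen receptors and proteases were the remaining lists. Of the receptors, 4 of 10 were tested, 3 with higher fitted values on day 7 and a median of 0.30: Itga2 had 0.61 (SE 0.34), Itgb1 0.47 (SE 0.18), Ddr1 0.14 (SE 0.14) and Itga1 -0.27 (SE 0.29). All 6 collagen-degrading proteases were tested and had higher fitted values, with a median of 5.21, or 4.62 with Mmp8 at the bound set by 3 reads in the control. Mmp9, a gelatinase of neutrophils and macrophages, stood at 0.123 RPKM in the control, 0.791, 16.7 and 14.03 after DSS and 7.25, 0.894 and 2.06 after PhIP/DSS. Mmp8, the neutrophil collagenase, had 0 reads in the control and 22.5 RPKM in DSS day 3. The lowest fitted values of this list were those of Mmp14, 0.32 (SE 0.31), and Mmp2, 3.48 (SE 1.28). Mmp8 and Mmp9 were highest in DSS day 3 and Ctsk, a cysteine protease of osteoclasts and macrophages, in DSS day 7, while Mmp2, Mmp13 and Mmp14 were highest in PhIP/DSS day 1.

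Markers of several other cell types also differed between the libraries, and their part in the results was not tested. The summed RPKM of 10 fibroblast markers was 15.2 in the control and between 24.4 and 164 in the treated libraries, highest in PhIP/DSS day 1 and lowest of the treated in PhIP/DSS day 3. Gli1 and Twist1 of that list were at 0 in the control, and 2 of its genes, Dcn and Lum, are also in the fibril-associated matrix list. Pdgfra, a fibroblast receptor, stood at 0.357 RPKM in the control, 0.575, 1.63 and 2.08 after DSS and 3.30, 1.07 and 2.23 after PhIP/DSS. Fap was below the control in all 6 treated libraries, at 1.11 RPKM and between 0.391 and 0.803, and Thy1 was below it in 4 of 6. The 8 smooth muscle markers summed to 23.1 RPKM in the control and between 19.7 and 28.5 in the treated libraries, with Acta2 at 1.42 and between 2.54 and 7.16, and Myh11 at 0.216 and between 0.0537 and 0.521. The 9 endothelial markers summed to 5.73 in the control and between 4.18 and 12.5, with Pecam1 at 1.18 and between 0.790 and 2.07, and Cldn5 and Emcn at 0 in the control. Of these, Vwf was below the control in all 6 treated libraries, at 0.591 and between 0.186 and 0.562, and Tek and Lyve1 were below it in 5 of 6.

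The 7 fat cell markers summed to 129 RPKM in PhIP/DSS day 1, against 16.8 in the control and between 2.47 and 6.73 in the other 5 libraries. Cfd, the fat cell protease adipsin, stood at 55.2 RPKM in PhIP/DSS day 1, 8.45 in the control and at most 0.385 elsewhere. That library was also the one in which 14 of the 16 tested chains were highest. Without it, 11 of the 16 were highest in DSS day 7, 3 in DSS day 3 and 2 in the control. No share of all genes tested is given beside these counts. Some chains, such as Col5a1 and Col5a3, passed the filter only through treated libraries. PhIP/DSS day 1 also had the largest share of all genes at least 2-fold above the control, 13%. Macrophage markers, 7 genes, summed to 37.7 RPKM in the control and between 82.95 and 332 in the treated libraries, and neutrophil markers, 5 of 6 listed, to 2.82 and between 30.4 and 1101, with Retnlg at 0 in the control.

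Epithelial markers, 8 genes, summed to 8386 RPKM in the control and between 9007 and 10670 in the treated libraries, and they were the bulk of the marker RNA in every library. Squamous markers, 8 genes, summed to 1.09 and between 6.87 and 19.6, with Krt14 at 0.854 and between 2.37 and 10.3, and with Krt13, Krt5, Krt6a and Trp63 at 0 in the control. Pericyte markers (5 genes, Rgs5 at 0 in the control) summed to 4.54 and between 2.78 and 6.38, and mesothelial markers (4 genes, Lrrn4 and Upk3b at 0 in the control) to 0.409 and between 0.675 and 3.39.

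**Figure D5:**
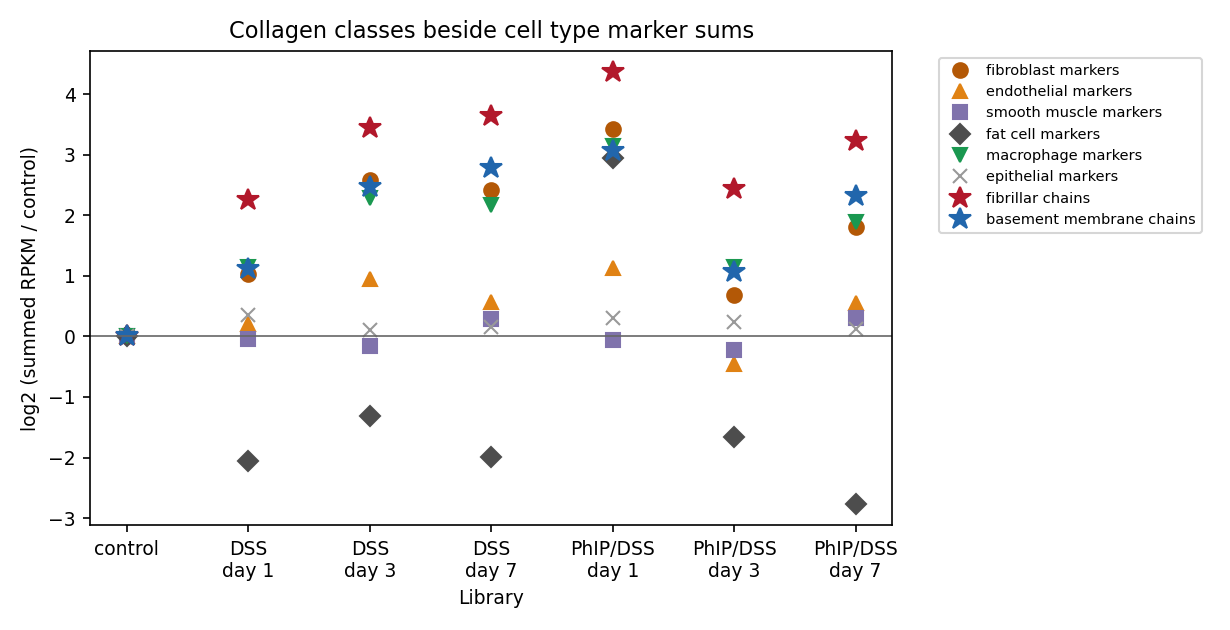
Log2 ratio of summed RPKM to the control for fibrillar and basement membrane chains (stars) and for 6 sets of cell type markers in the 7 libraries. The stars are highest in PhIP/DSS day 1, where the fat cell markers, below the control in the other 5 treated libraries, are above it, and the epithelial and smooth muscle markers lie near 0 in all libraries.

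The library totals ranged from 7.66 M unique reads in the control to 8.78 M in DSS day 3, and TMM factors, which correct for RNA composition, from 0.980 to 1.02. Mouse Cyp1a1 and Cyp1a2, which the hCYP1A genotype lacks, had 0 reads in all 7 libraries.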

How the data were processed

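RNA of the colon epithelium was measured in 7 pooled libraries. For every gene the deposited tables hold, per the file headers, a count of unique reads, a length in bases (another unit, with no normalization), a coverage in percent and an RPKM value. The deposited RPKM equals the reads divided by gene length and by the library's total of unique reads. The percent coverage is the authors' value and is used only in the closing section. The submitters' processing notes name mm10 and FastQC, while no label or header names the aligner, counter, annotation release or use of strand. Groups and days come from the labels, since the tables' names carry other day codes. A gene missing from a table was entered as 0 reads. Identifiers were matched to a RefSeq table (GRCm38.p6), which gave a symbol to 17983 genes and none to 53.

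The fit used edgeR 4.0.16 (R 4.3.3) on the counts of the 12061 genes that reached 1 RPKM in 2 or more libraries, with TMM factors, the quasi-likelihood test, Benjamini-Hochberg adjustment over all genes and calls at an adjusted p under 0.05. It had a level for the control and each day plus a PhIP term. The common dispersion was 0.0563, and p-values measure only the spread between these pools. The control was assumed to vary like the treated libraries. Single-library ratios used RPKM + 0.1 and a 2-fold rule. Intervals are exact 95% intervals conditional on the summed reads and cover counting error only, and a count of 0 allows up to 3 reads. Alternatives were DESeq2 1.42.0, limma 3.58.1 on log2 RPKM with 2 pseudocounts, RLE factors, no filter, no PhIP term, no day block, and each library left out. The fit was also run on simulated counts with a lower dispersion than these data and no difference between the arms. That run does not test how the fit handles the spread seen here. The chains, classes and lists were chosen with earlier results of these data known. Every tested chain is named; of each list, the 2 highest and 2 lowest fitted day 7 values are named, plus Serpinh1, P4hb, Lox and Sparc. One marker list is not reported here.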

Additional observations from a re-analysis of the deposited data

Results flagged for a closer look

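The difference between the arms changed sign from day 1 to day 3 in 4 classes of chains, and this change was not tested, since each arm and day had 1 library. For fibrillar chains the log2 ratio of summed RPKM, PhIP/DSS over DSS, was 2.10 on day 1 and -1.01 on day 3, and it was -0.42 on day 7. For basement membrane chains it was 1.95 on day 1, -1.40 on day 3 and -0.46 on day 7. The beaded filament chains stood at 2.43, -0.97 and -0.24 on those days. The multiplexins stood at 2.16, -1.16 and -0.59.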

How the results depend on the processing

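Every chain tested kept its direction against the control under the alternatives that could be fitted, except Col15a1 on day 3, whose log2 fold change ranged from -0.10 without DSS day 3 to 1.50 without PhIP/DSS day 3. Of 576 alternative values of single chains against the control, 482 kept direction and side of the threshold, 93 passed the threshold that the reported value missed, and 1 reversed. The number of chains called was 0 as reported; leaving out 1 library gave 0 to 16 on day 1, 0 to 15 on day 3, 0 to 15 on day 7, 0 to 13 for day 7 against day 1 and 0 to 3 for PhIP/DSS against DSS, the last with 3 lower without either day 1 library. Without DSS day 1 the counts were 16, 15, 15, 13 and 3, and without PhIP/DSS day 1 they were 7, 15, 15, 12 and 3. For day 7 against day 1 these fits called 11.7% of all genes higher and 13.1% lower, and 4.12% and 2.40%, and between the arms 0.871% and 1.47%, and 1.02% and 1.67%. On day 1 DESeq2 called 9 chains, and the fit with no PhIP term called 1, Col16a1 (5.52% of all genes higher and 5.30% lower). Without a day 1 library, the day 1 difference between the arms does not enter the spread of the fit. Why DESeq2 and the fit with no PhIP term gave other counts was not tested. With a pseudocount of 1, chains higher by 2-fold numbered 5 in DSS day 1, and 13, 5 and 9 in PhIP/DSS days 1, 3 and 7, and 2 were lower in DSS day 3; between the arms 0 were lower on day 1, 0 higher and 3 lower on day 3, and 0 higher and 0 lower on day 7. That pseudocount by construction shrinks ratios of scarce chains, and no share of all genes is given for it. Its counts of higher chains in DSS days 3 and 7, and between the arms on day 1, are not given. Dropping PhIP/DSS day 1 from the count of chains above or below the control in every treated library was chosen after seeing the data. The reported fit compared the arms within days. No paired analysis was possible because each condition had 1 library, so no replicate numbers pair samples beyond the day. Contrasts with the control could not be fitted without the control. Depth limits the 25 chains below the filter, which had between 1 and 220 reads over all libraries, with a median of 20.0.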

Other observations

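The deposited percent coverage, the share of a gene's length with reads, gives another view of Col1a1, Col8a1 and Col16a1. For Col1a1 it was 25.8% in the control, 73.9%, 91.6% and 91.3% on days 1, 3 and 7 after DSS, and 96.5%, 74.2% and 85.8% after PhIP/DSS. For Col8a1 it was 72.4% in the control, 23.9%, 13.7% and 23.3% after DSS, and 3.84%, 31.3% and 27.0% after PhIP/DSS. For Col16a1 it was 70.8% in the control, 34.5%, 40.3% and 40.0% after DSS, and 41.7%, 42.5% and 49.3% after PhIP/DSS. Coverage depends on the number of reads, so it is not independent of the counts. The control reads of Col8a1 and Col16a1 touched most of the length of each gene. Percent coverage does not show how evenly reads were spread over that length.

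Several chains are neighbours in the genome with no other gene of the RefSeq table between them. Col3a1 and Col5a2, both fibrillar, lie 24624 bases apart on chromosome 1. Col6a2 and Col6a1 lie 85161 bases apart on chromosome 10. Col4a6 and Col4a5 lie 1274 bases apart on chromosome X, and Col4a4 and Col4a3 overlap on chromosome 1. Among the chains below the filter, Col10a1 overlaps Nt5dc1 and Col9a3 overlaps Tcfl5, both protein-coding, and their few reads are uncertain in that respect.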
